A study of Mus musculus with 6 samples.

Results

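The genes described here are the 39 heat shock and unfolded protein response genes listed by symbol. They were chosen by name, with earlier results of these data known. They are 16 cytosolic genes, 3 mitochondrial genes, 15 endoplasmic reticulum (ER) genes and 5 stress factors, out of 15441 gene identifiers with a value in the series. Of the 39, 35 had a value, 34 of them in each of the 6 libraries. The study followed the cerebral cortex of mice after photothrombosis, in which light through the skull activates the dye Rose Bengal and clots the vessels of the sensorimotor cortex. All mice were male C57/BL6J animals of 6 to 8 weeks, and the whole cortex on the operated side was taken. The control group was sham-operated without illumination and taken on day 7 after the operation. The 5 stroke groups were taken on days 1, 3, 7 and 14 and, last, on day 28 post-stroke. RNA of 3 mice was pooled for each group, so there was 1 poly(A) library per group and no difference below has a replicate check. No p-value is given, and a 2-fold difference is a size and not a test result. The control group had 1 time point, so a change with age or with time after surgery cannot be told apart from the stroke at the other days.

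Chaperones bind unfolded proteins and help them fold. In the cytosol, damaged proteins release heat shock factor 1 (Hsf1), which binds heat shock elements and drives the genes of Hsp70, Hsp90, Hsp40 and small heat shock proteins. In the ER, unfolded proteins draw the chaperone BiP (Hspa5) away from the sensors Perk, Ire1 and Atf6, whose signals pass through Atf4, Xbp1 and cleaved Atf6 to genes of folding, disulfide exchange and degradation. Both responses are known to accompany ischemia, when energy, calcium and redox balance fail in the tissue.

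Values are in FPKM, fragment counts scaled for transcript length and library size, so levels can be set side by side between genes. The tables hold 1 FPKM for each transcript start, transcript end or splicing event. A gene's level was the largest of its summed starts, its summed ends and any single event. Log2 ratios to control were formed with 0.1 FPKM added to both values, for genes that reached 1 FPKM in either library, and ratios given as "times" are of the FPKM themselves. The depth of each library is unknown. In bulk tissue, fewer cells of a type and less RNA per cell cannot be told apart.

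Of the members compared, 4 of 34 were at least 2-fold above control on day 1 (Hspb1, Bag3, Hspa5 and Pdia6), where 5.11% of all genes compared were. On day 3 there were 3 of 33 (Hspb1, Bag3 and Pdia6), against 8.54% of all genes. On day 7 there were 3 of 33 (Bag3, Pdia6 and Edem1), against 8.53%. On day 14 there were 3 of 34 (Hspb1, Hspb8 and Ddit3), against 8.97%, and on day 28 3 of 34 (Hspa5, Pdia6 and Ddit3), against 3.68%. The share of members was thus above that of all genes on day 1 and day 28 and close to it on days 3, 7 and 14. The 2 higher shares rested on few genes. By end events alone Hspa5 was under 2-fold on both days, with log2 ratios of 0.96 and 0.52. Ddit3, counted on day 28, had no start or end event inside its annotated span. No member was at least 2-fold below control at any day, whereas 4.48%, 2.53%, 2.12%, 6.92% and 2.79% of all genes were on days 1, 3, 7, 14 and 28. The highest library was under 2 times the lowest for 25 of 34 members, close to the share of all genes (67.8%). The median of highest over lowest was 1.62 for the members and 1.66 for all genes. The control library was the lowest of the 6 for 13 of 34 members, and for 18.5% of all genes. These 13 were 4 cytosolic genes (Hspb1, Hspb8, Dnajb1 and Bag3), the mitochondrial Hspd1 and Hspe1, 6 ER genes (Hspa5, Pdia3, Pdia4, Pdia6, Sdf2l1 and Creld2) and Xbp1. All comparisons share the 1 control library, so a low control value raises a gene at all 5 days at once.

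**Figure D1:**
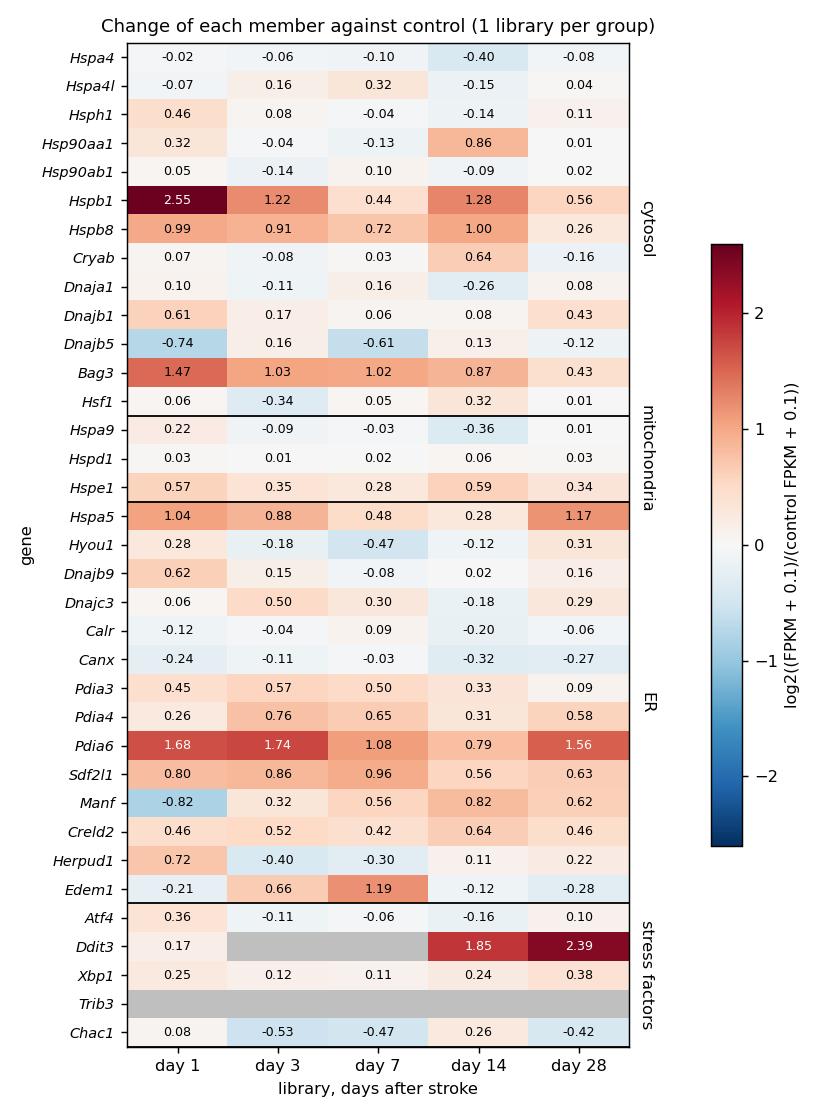
Log2 ratio to control (colour and printed value) of the 35 members with a value, by post-stroke library, with genes in rows by compartment. Gray marks genes under 1 FPKM or not listed in both libraries. Hspb1 on day 1 (2.55) and Ddit3 on day 28 (2.39) were the highest values, and Pdia6 was at 0.79 or more in every post-stroke library.

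The compartments were compared by the median log2 ratio of their members. The ER median over 14 genes was 0.36, 0.51, 0.45, 0.19 and 0.30 on days 1, 3, 7, 14 and 28. The cytosolic median over 13 genes was 0.10, 0.08, 0.06, 0.13 and 0.04, close to the medians of all genes compared (0.01, 0.03, 0.03, 0.10 and 0.03). The cytosolic median was therefore below the ER median at all 5 days, by 0.26, 0.43, 0.38, 0.07 and 0.26 in the order of the days. The 3 mitochondrial genes had medians of 0.22 on day 1 and between 0.01 and 0.06 later. Of the ER genes, 10 of 14 were above control on days 1, 3 and 7, 9 on day 14 and 11 on day 28. Of the cytosolic genes, 10, 7, 9, 8 and 10 of 13 were, where 51.5% to 57.4% of all genes lay above control.

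The order of the compartments depended on the reference library and on how genes were valued. With the day 28 library in place of control, a choice made after the data were seen, the cytosolic median was above the ER median by 0.16 on day 1, 0.06 on day 7 and 0.37 on day 14, and below it by 0.09 on day 3. From end events alone it was above by 0.11 on day 1 and 0.26 on day 14. On day 14 it was also above by 0.12 after a correction for transcript length and by 0.11 with Hspa8 and Hsp90b1 included, which are listed under other identifiers. The day 3 difference kept its direction under every alternative tried. The day 28 difference kept it under those that could be run for it, which leaves out the change of reference to day 28 itself.

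**Figure D2:**
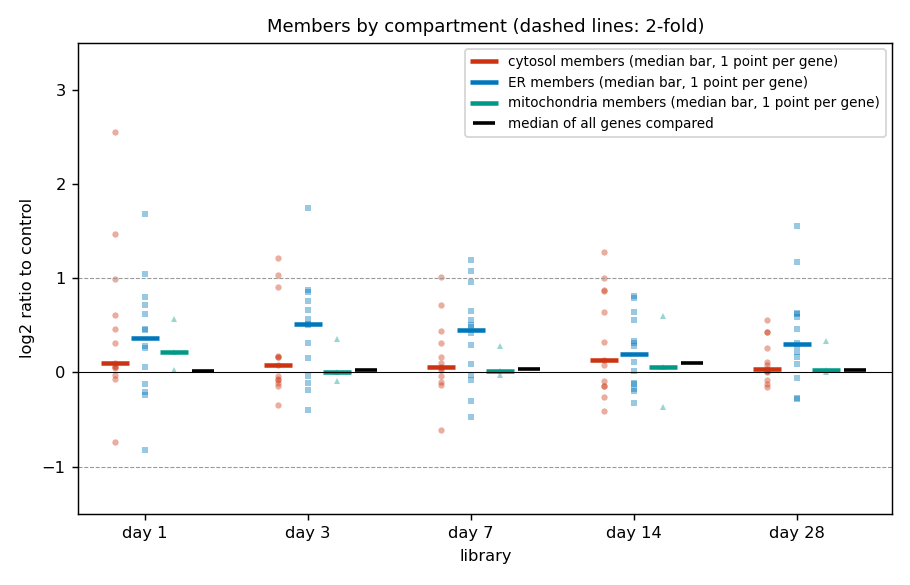
Log2 ratio to control of each member (points) and the median of its compartment (bars) by post-stroke library, with the median of all genes compared in black. The ER median was highest on day 3 (0.51) and nearest to the cytosolic median on day 14 (0.19 against 0.13), and the points of both compartments overlapped at every day.

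The summed levels, in which genes with high FPKM weigh most, were in the same order relative to control on days 1, 3, 7 and 28 and in the opposite order on day 14. The 14 ER genes summed to 408 FPKM in control, 532 on day 1, 531 on day 3, 494 on day 7, 435 on day 14 and 530 FPKM on day 28. The 13 cytosolic genes summed to 883, 988, 850, 910, 978 and 901 FPKM in the same order. The ER sum was thus at 106% to 130% of control after stroke and the cytosolic sum at 96.3% to 112%. The cytosolic sum was 2.16 times the ER sum in control, 1.60 times on day 3 and 2.25 times on day 14. Hsp90ab1 alone held 40.1% to 48.9% of the sum of the 13 cytosolic genes. These sums leave out Hspa8 and Hsp90b1, which are listed under other identifiers. With Hsp90b1 included, the ER sum was 490 FPKM in control and 484 FPKM on day 14, so below control there. With Hspa8 included, the cytosolic sum was 1463 FPKM in control and between 1474 FPKM on day 3 and 1774 FPKM on day 1 after stroke.

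The small heat shock proteins Hspb1 and Hspb8 and their partner Bag3 gave the largest cytosolic differences. Hspb1 encodes Hsp27, a small heat shock protein that holds unfolding proteins and stabilizes actin. Its level was 3.99 FPKM in control, 23.9 on day 1, 9.43 on day 3, 5.46 on day 7, 9.83 on day 14 and 5.92 FPKM on day 28. Hspb1 on day 1 was 5.99 times control (log2 ratio 2.55), the largest ratio among the members. Days 3 and 14 were at 2.36 and 2.46 times control, and of these only day 14 lay above the libraries on both sides of it. Its start and end events, taken apart, gave log2 ratios of 2.55 and 2.54 on day 1. After the correction for transcript length, neither Hspb1 nor Hspb8 passed 2-fold on day 14.

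Heat shock elements are inverted repeats of the letters GAA, and the promoter windows of the members were searched for them because Hsf1 binds such repeats. The windows run from 250 bases before to 50 bases after the start of each gene (RefSeq, GRCm38.p6), and 31 of the 39 members had one. The pair GAANNTTC, the same letters on both strands, was found in 7 of 11 cytosolic members, both mitochondrial members with a window and 0 of 13 ER members. It was found in 7.86% of all 32851 windows. The triple, which is the pair followed by 2 bases of any kind and another GAA, searched on both strands, was found in Hsph1, Hspd1 and Hspe1 and in 0.603% of all windows. A match is a description and not a binding site. The sequences below are those of members described next, including Hspa1a and Hspa1b, which have no level here, with the pair or triple in capitals and 5 flanking bases where the window allows, on the strand of the gene.
Hspb1, chr5:135887797-135887814, + strand: caagaGAAGTTTCcagat
Hspb1, chr5:135887817-135887834, + strand: gggcaGAACCTTCctggc
Hspb8, chr5:116422850-116422867, - strand: caggaGAAGTTTCtaggc
Bag3, chr7:128523620-128523632, + strand: gaccaGAAGTTTC
Dnaja1, chr4:40722339-40722356, + strand: ctctaGAAAATTCtacga
Hsph1 triple, chr5:149636283-149636305, - strand: gcagaTTCTGGAAAGTTCtcctc
Hspe1 triple, chr1:55088059-55088081, + strand: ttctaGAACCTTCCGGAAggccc
Hspa1a, chr17:34972248-34972265, - strand: tgctgGAAGATTCctggc
Hspa1b, chr17:34959330-34959347, - strand: tgctgGAAGATTCctggc

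In Hspb1 both pairs lay before the start, at 117 and 97 bases. In Hspb8 the match began at the third base of the transcript, and in Bag3 and Hsph1 it lay after the start. The whole 250 bases before Hspb1 are shown because this gene had the largest difference, with both pairs in capitals (chr5:135887669-135887918, + strand, RefSeq, GRCm38.p6).
Hspb1 upstream: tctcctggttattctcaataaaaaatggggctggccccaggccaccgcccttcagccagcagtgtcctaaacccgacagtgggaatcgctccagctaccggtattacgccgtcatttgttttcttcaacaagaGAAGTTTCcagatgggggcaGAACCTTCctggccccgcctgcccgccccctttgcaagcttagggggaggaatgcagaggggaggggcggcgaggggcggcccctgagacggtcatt

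Hspb8 encodes the small heat shock protein that forms a complex with Bag3. Its level was 8.05 FPKM in control, 16.1 on day 1, 15.2 on day 3, 13.3 on day 7, 16.2 on day 14 and 9.69 FPKM on day 28. The day 1 to day 14 libraries were all above control and day 28, and the log2 ratios of 0.99 on day 1 and 1.00 on day 14 lay on either side of the 2-fold threshold. Bag3 is the co-chaperone that links Hsp70 clients to autophagy. Bag3 was at 2.29 FPKM in control, 6.51 on day 1, 4.78 on day 3, 4.73 on day 7, 4.28 on day 14 and 3.11 FPKM on day 28. It was highest on day 1 (2.85 times control) and lower at each later library in turn. Its start and end events gave the same values in every library. In Hspb1, Hspb8 and Bag3 alike, control was the lowest library, and day 28 was the next lowest except in Hspb1, where day 7 was. Cryab, the alpha B-crystallin of glia and muscle, ranged between 35.9 and 41.9 FPKM in 5 libraries and was 62.3 FPKM on day 14 (log2 ratio 0.64).

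The Hsp70 family was measured only in part. The inducible Hspa1a and Hspa1b, near-identical neighbors on chromosome 17 with the same heat shock pair 104 bases before the start, were listed in no library. No event with a gene identifier lay wholly inside either gene on its strand. Events without an identifier or across a gene's edge were not searched, so nothing is said of their level. The constitutive Hspa8 was not listed under its own identifier. On its strand and inside its span, events carried the identifier of Snord14e, a small nucleolar RNA gene nested in it, and these summed to 580 FPKM in control, 786 on day 1, 623 on day 3, 622 on day 7, 772 on day 14 and 716 FPKM on day 28. Control was the lowest of these and day 1 the highest, at 1.36 times control. Hspa4, a nucleotide exchange factor of the Hsp110 family, was between 37.1 FPKM on day 14 and 49.1 FPKM in control. Its relative Hspa4l was between 9.83 FPKM on day 14 and 13.6 FPKM on day 7.

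Hsph1 (Hsp105) is the heat-inducible Hsp110 protein. Its level was 58.7 FPKM in control, 80.9 on day 1, 61.8 on day 3, 57.0 on day 7, 53.3 on day 14 and 63.2 FPKM on day 28. Day 1 stood away from the others, at 1.38 times control. Dnajb1, the Hsp40 partner that hands clients to Hsp70, was at 13.5 FPKM in control, 20.7 on day 1, 15.3 on day 3, 14.1 on day 7, 14.3 on day 14 and 18.2 FPKM on day 28. Day 1 was 1.53 times control, and days 3 to 14 were within 1.13 times control. Dnaja1, another Hsp40, was between 86.5 and 116 FPKM, with log2 ratios from -0.26 to 0.16. Dnajb5 was lower on day 1 (17.6 FPKM) and day 7 (19.2 FPKM) than in the other 4 libraries (27.0 to 32.9 FPKM). Its values came from start events, since its end events were under 2 FPKM in every library.

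Hsp90aa1, the inducible cytosolic Hsp90, was at 137 FPKM in control, 170 on day 1, 133 on day 3, 125 on day 7, 248 on day 14 and 138 FPKM on day 28. Day 14 was 1.82 times control and day 1 1.25 times. Start and end events gave 0.86 and 0.94 for the log2 ratio on day 14. The constitutive Hsp90ab1 was the member with the highest level of those valued under their own identifier and ranged only from 377 FPKM on day 3 to 445 FPKM on day 7. Hsf1 itself was between 7.80 FPKM on day 3 and 12.4 FPKM on day 14, with a log2 ratio of 0.06 on day 1. On day 1, then, Hspb1, Bag3, Hspb8, Dnajb1, Hsph1 and Hsp90aa1 were above control by log2 ratios of 0.32 to 2.55, while Hsp90ab1, Hspa4, Hspa4l, Cryab, Dnaja1 and Hsf1 lay within 0.10 of it and Dnajb5 was below it by a log2 ratio of -0.74.

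**Figure D3:**
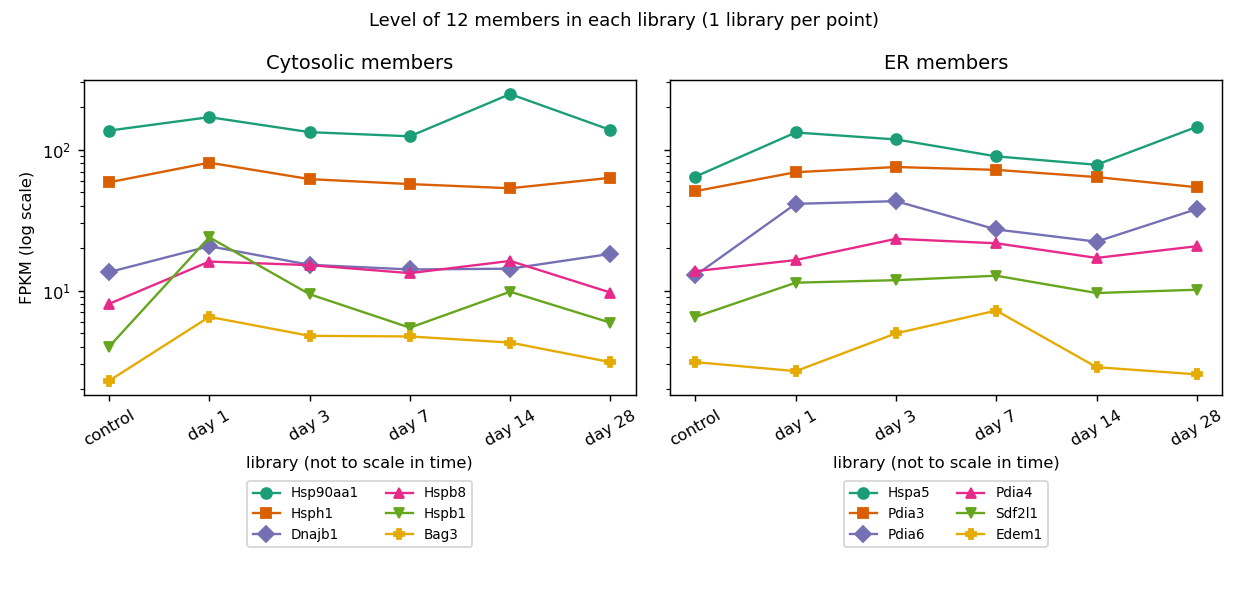
FPKM (log axis) of 6 cytosolic members (left) and 6 ER members (right) in the control and the 5 post-stroke libraries, with 1 point per library. Hspb1 and Bag3 peaked on day 1, Hsp90aa1 stood apart on day 14, and Pdia6 was lowest in control (12.8 FPKM against 22.3 to 43.2 FPKM).

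The mitochondrial chaperones moved little. Hspd1 (Hsp60) was between 59.8 and 62.1 FPKM in all 6 libraries. That range rested on the larger of its start and end sums, and its start sum alone was 43.0 FPKM in control and 13.1 FPKM on day 14. Hspe1 (Hsp10), the lid of the Hsp60 chamber, was at 46.6 FPKM in control and between 56.5 and 70.4 FPKM after stroke, highest on day 14 (1.51 times) and day 1 (1.48 times). Hspd1 and Hspe1 lie head to head on opposite strands of chromosome 1 with overlapping annotated ends, and the heat shock triple shown for Hspe1 lies before the RefSeq start of both. Hspa9 (mortalin), the mitochondrial Hsp70, was between 44.2 FPKM on day 14 and 66.0 FPKM on day 1.

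Among the ER members, Hspa5 encodes BiP, the Hsp70 of the ER lumen and the classic reporter of the unfolded protein response. Its level was 64.4 FPKM in control, 133 on day 1, 118 on day 3, 89.7 on day 7, 78.2 on day 14 and 145 FPKM on day 28. Control was the lowest library, day 1 was 2.06 times and day 28 2.26 times control. These values are the sums of its start events, and the end events gave another order. The single end event was at 61.6 FPKM in control, 120 on day 1, 80.4 on day 3, 87.2 on day 7, 75.2 on day 14 and 88.2 FPKM on day 28. By end events only day 1 stood clearly apart, with log2 ratios of 0.96, 0.38, 0.50, 0.29 and 0.52 at the 5 days, against 1.04, 0.88, 0.48, 0.28 and 1.17 by start events.

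On days 3 and 28 the difference between start and end sums lay mostly in 1 start. Most Hspa5 transcripts began at the main start (chr2, 34772095, + strand), which had 61.3 FPKM in control, 114 on day 1, 79.4 on day 3, 82.0 on day 7, 73.3 on day 14 and 88.1 FPKM on day 28. A second start 125 bases upstream (34771970) had 0.226 FPKM in control, 5.61 on day 1, 31.7 on day 3, 5.07 on day 7, 1.81 on day 14 and 49.5 FPKM on day 28. It made up 0.351% of the start sum in control, 26.8% on day 3 and 34.1% on day 28, and between 2.31% and 5.65% in the other libraries. There is 1 end event, and on days 3 and 28 it was close to the main start alone (80.4 against 79.4 FPKM and 88.2 against 88.1 FPKM), so the 2-fold difference of Hspa5 on day 28 rested on the upstream start. By the main start alone the log2 ratios were 0.90, 0.37, 0.42, 0.26 and 0.52. Start and end log2 ratios were apart by over 1.5-fold in 3 of the 28 members with both, Dnajb5, Hspa5 and Hspd1.

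**Figure D4:**
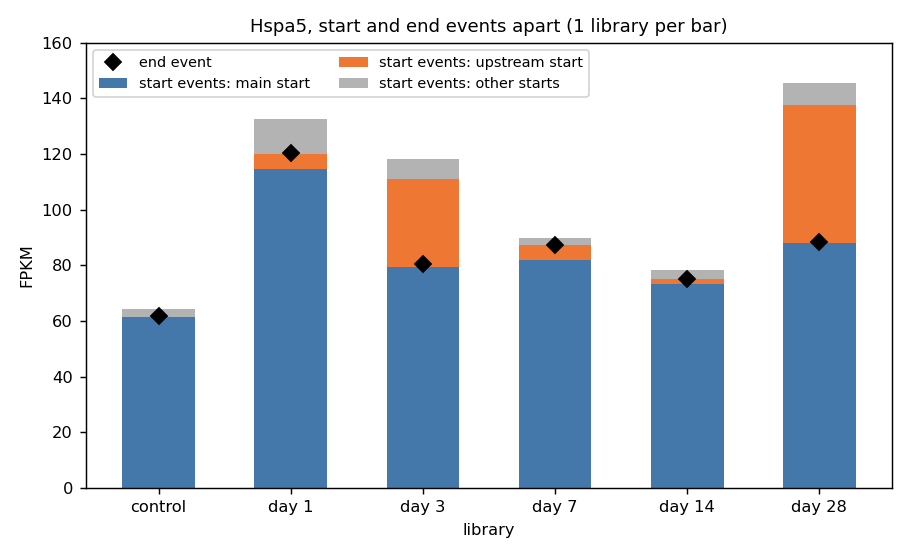
FPKM of the Hspa5 start events (stacked bars, by start) and of its end event (diamonds) in each library. The bars and diamonds were close in control and on days 7 and 14, while on days 3 and 28 the upstream start put the bar well above the end event (145 against 88.2 FPKM on day 28).

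The ER stress element (ERSE), CCAAT and CCACG with 9 bases of any kind between them, is the sequence through which Atf6 and Xbp1 act together with the factor NF-Y. Searched on both strands of the same promoter windows, it was found in 7 of 13 ER members, 0 of 11 cytosolic members and 0.119% of all windows. The shorter ERSE-II, ATTGG and CCACG with 1 base between them, was found in Herpud1 alone of the members and in 0.0365% of all windows. The Xbp1 element core TGACGTGG was found in no member's window and in 0.676% of all windows. The 7 genes and Herpud1 are shown because they share these letters while their levels differed (capitals mark the element, with 5 flanking bases, on the strand of the gene, RefSeq, GRCm38.p6).
Hspa5, chr2:34772020-34772048, + strand: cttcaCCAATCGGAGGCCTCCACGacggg
Hsp90b1, chr10:86705633-86705661, - strand: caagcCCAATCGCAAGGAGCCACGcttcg
Hsp90b1, chr10:86705528-86705556, - strand: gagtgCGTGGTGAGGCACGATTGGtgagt
Dnajc3, chr14:118937822-118937850, + strand: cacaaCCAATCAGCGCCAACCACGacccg
Calr, chr8:84847070-84847098, - strand: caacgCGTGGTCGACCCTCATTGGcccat
Canx, chr11:50325795-50325823, - strand: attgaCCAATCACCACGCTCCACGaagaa
Pdia6, chr12:17266486-17266514, + strand: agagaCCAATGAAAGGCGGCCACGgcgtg
Creld2, chr15:88819515-88819543, + strand: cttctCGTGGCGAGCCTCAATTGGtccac
Herpud1 (ERSE-II), chr8:94386372-94386392, + strand: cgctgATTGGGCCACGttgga

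In Calr, Creld2 and the second Hsp90b1 match the element reads in the opposite direction. The Hspa5 element began 70 bases before the main start and 55 bases after the upstream start, inside the exon listed for the upstream start. Of the 6 ERSE genes with a value, Hspa5 and Pdia6 passed 2-fold on days 1 and 28, and Pdia6 alone on days 3 and 7. Of all genes compared, 5.11%, 8.54%, 8.53% and 3.68% were 2-fold higher on days 1, 3, 7 and 28. Hspa5 and Pdia6 were lowest in the 1 control library, as Creld2 was. By end events Hspa5 had a log2 ratio of at most 0.96. Dnajc3, Calr, Canx and Creld2 had log2 ratios between -0.32 and 0.64.

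Pdia6, a protein disulfide isomerase that also damps Ire1 signaling, gave the largest ER difference. Its level was 12.8 FPKM in control, 41.3 on day 1, 43.2 on day 3, 27.2 on day 7, 22.3 on day 14 and 37.9 FPKM on day 28. All 5 post-stroke libraries were above control, by 1.74 to 3.36 times, and day 28 was close to days 1 and 3. Since the value was high in all 5 and low in the 1 control library, the comparison rests on that library: against day 28, Pdia6 had log2 ratios of 0.12 on day 1, 0.19 on day 3, -0.48 on day 7 and -0.77 on day 14. Its end sums were 10.4 FPKM in control and between 21.9 and 42.4 FPKM after stroke, so both kinds of event gave the same order. The 206 bases before the start of Pdia6 are shown for this reason, with the ERSE in capitals (chr12:17266339-17266544, + strand, RefSeq, GRCm38.p6).
Pdia6 upstream: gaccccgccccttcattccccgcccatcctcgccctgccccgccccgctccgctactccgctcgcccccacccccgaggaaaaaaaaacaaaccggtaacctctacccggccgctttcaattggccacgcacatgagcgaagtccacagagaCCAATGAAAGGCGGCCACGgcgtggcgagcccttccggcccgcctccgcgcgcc

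The other disulfide isomerases differed less. Pdia3 (ERp57), which works with calnexin and calreticulin on glycoproteins, was at 50.8 FPKM in control, 69.3 on day 1, 75.4 on day 3, 72.0 on day 7, 64.0 on day 14 and 54.2 FPKM on day 28. Pdia4 (ERp72) was at 13.8 FPKM in control, 16.5 on day 1, 23.3 on day 3, 21.7 on day 7, 17.1 on day 14 and 20.7 FPKM on day 28. Both were lowest in control and highest on day 3, at 1.48 and 1.70 times control. The lectin chaperones Calr and Canx, which retain glycoproteins until they are folded, stayed between 81.6 and 99.8 FPKM and between 67.0 and 83.9 FPKM. Canx was below control in all 5 post-stroke libraries, by log2 ratios of -0.03 to -0.32.

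Sdf2l1, which keeps clients of BiP soluble, was at 6.50 FPKM in control, 11.4 on day 1, 11.9 on day 3, 12.8 on day 7, 9.62 on day 14 and 10.1 FPKM on day 28. All 5 post-stroke libraries were at 1.48 to 1.96 times control, just under the threshold on day 7. Creld2 was likewise lowest in control (6.10 FPKM) and between 8.17 and 9.58 FPKM after stroke. Manf, an ER-resident neurotrophic factor, was at 13.2 FPKM in control, 7.43 on day 1, 16.4 on day 3, 19.5 on day 7, 23.3 on day 14 and 20.4 FPKM on day 28. Manf on day 1 was the lowest library, at 56.3% of control, on the day when Hspa5 and Herpud1 were above control. Hyou1 (Grp170), the exchange factor of BiP, was lowest on day 7 (10.3 FPKM) and highest on day 28 (17.9 FPKM).

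The BiP co-chaperones and the degradation genes had their own time courses. Dnajb9 (ERdj4), which brings BiP to Ire1, was at 23.5 FPKM on day 1 and between 14.4 and 17.0 FPKM in the other 5 libraries. Dnajc3 (p58IPK), which restrains Perk, was highest on day 3 (14.7 FPKM) and lowest on day 14 (9.14 FPKM). Herpud1, a scaffold of ER-associated degradation, was at 20.2 FPKM in control, 33.2 on day 1, 15.2 on day 3, 16.4 on day 7, 21.8 on day 14 and 23.5 FPKM on day 28. Herpud1 on day 1 was 1.65 times control and on day 3 it was 75.6% of control. Edem1, which extracts misfolded glycoproteins, was at 3.11 FPKM in control, 2.68 on day 1, 4.97 on day 3, 7.22 on day 7, 2.86 on day 14 and 2.55 FPKM on day 28. Day 7 was 2.32 times control, while days 1, 14 and 28 were below it. Edem1 had no listed start in control, so its value there rested on its end events. Hsp90b1 (Grp94) was held under the identifier of the nested microRNA gene Gm25745, at 81.8 FPKM in control, 98.2 on day 1, 109 on day 3, 100.2 on day 7, 48.8 on day 14 and 90.2 FPKM on day 28. Day 14 was the lowest of these, at a log2 ratio of -0.74.

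Of the stress factors, Atf4, the transcription factor raised by translation control after Perk signaling, was at 56.0 FPKM in control, 72.1 on day 1, 51.9 on day 3, 53.9 on day 7, 50.0 on day 14 and 60.2 FPKM on day 28. Day 1 was 1.29 times control and the later libraries were at 89.2% to 107% of it. Xbp1 was lowest in control (26.7 FPKM) and highest on day 28 (34.9 FPKM). The exon and intron events compared for Xbp1 had shares that varied by at most 9.42 points, and neither is the short intron that Ire1 removes. Chac1, a glutathione-degrading target of Atf4, was between 2.38 FPKM on day 3 and 4.20 FPKM on day 14. Trib3, a pseudokinase target of Chop, was listed only in control (0.186 FPKM) and on day 3 (0.739 FPKM), under the limit for comparison. The letters TGATGNAA, the core of the element bound by Chop with Atf4, were found on 1 or the other strand in the windows of Chac1, Trib3 and Herpud1 and in 3.97% of all windows.

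Ddit3 (Chop), the factor tied to cell death under ER stress, was listed at 0.976 FPKM in control, 1.11 on day 1, 0.729 on day 3, 0.970 on day 7, 3.78 on day 14 and 5.55 FPKM on day 28. Days 14 and 28 stood apart at 3.87 and 5.69 times control. No start or end event in any library lay inside the annotated span of Ddit3, and on days 1 and 3 no event of any kind did. From events inside the span alone, the log2 ratio was 0.38 on day 14 and 1.43 on day 28. Its values can therefore include a neighboring locus, and at 1.43 it passed 2-fold on day 28 but not on day 14.

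Splicing shares were compared for events with at least 5 FPKM in all 6 libraries. Where transcripts with or without an exon or intron were not listed, they were taken as 0. The cutoff of 25 points between the highest and lowest library was chosen after the values were seen. Of 10 exon events in 6 members, 3 passed it (1 in Hsph1 and 2 in Hsf1), against 26.2% of all such events. Of 8 intron events in 6 members, 0 passed it, against 19.7% of all. The exon with the widest range was the 132-base exon of Hsph1 at chr5:149623465-149623596 (GRCm38, - strand), which keeps the reading frame with 44 codons. GENCODE M21 has it in 3 coding transcripts and leaves it out of 1. The share of transcripts without it was 0.871% in control, 5.27% on day 1, 62.6% on day 3, 55.6% on day 7, 57.2% on day 14 and 11.1% on day 28. Days 3, 7 and 14 thus stood apart from control, day 1 and day 28, while the Hsph1 level on days 3 to 14 was at 90.8% to 105% of control. In FPKM, transcripts with the exon were at 57.0 in control and 23.1 on day 3, and those without it at 0.501 and 38.7. The exon is shown in capitals with 15 bases of each neighboring exon, since its share among transcripts had the widest range (GENCODE M21).
Hsph1 exon: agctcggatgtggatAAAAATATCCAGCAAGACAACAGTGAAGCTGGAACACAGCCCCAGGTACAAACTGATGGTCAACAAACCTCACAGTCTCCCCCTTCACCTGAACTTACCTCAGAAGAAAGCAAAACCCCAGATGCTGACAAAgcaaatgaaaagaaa

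**Figure D5:**
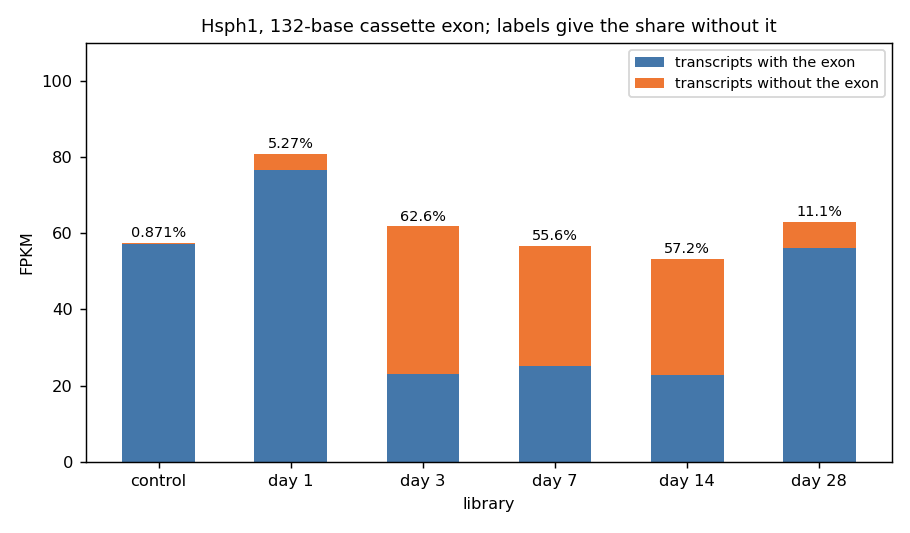
FPKM of Hsph1 transcripts with and without the 132-base exon (stacked bars) in each library, with the percentage without it printed above. The share without the exon was 55.6% or more on days 3, 7 and 14 and at most 11.1% in control and on days 1 and 28.

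In Hsf1, a 66-base exon (chr15:76500131-76500196, + strand) was left out of 12.8% of transcripts in control, 24.0% on day 1, 40.5% on day 3, 45.4% on day 7, 26.3% on day 14 and 29.9% on day 28. Its control share was the lowest and day 7 the highest, while the gene level stayed between 7.80 and 12.4 FPKM. An 84-base exon of Hsf1 was left out of 73.6% of transcripts in control and of 89.0% to 94.1% on days 7, 14 and 28. On days 1 and 3 transcripts with this exon were not listed, and it passed the cutoff only with these taken as 0. Where listed, transcripts with it were at 0.527 to 2.19 FPKM. The intron of Dnaja1 at chr4:40726209-40727956 came just under the cutoff, with transcripts that retained it at 37.3% in control and 62.1% on day 7. An 85-base intron of Hsp90aa1 was listed as retained on day 1 alone, at 117 FPKM. In the other libraries that event was not listed, and nothing is read from its absence.

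The other genes of these pathways were taken from 5 lists of 104 genes, of which 95 had a value. In all, 9 were at least 2-fold higher and 2 lower of 92 on day 1, 6 and 1 of 92 on day 3, 5 and 1 of 93 on day 7, 5 and 9 of 92 on day 14, and 3 and 2 of 91 on day 28. Of all genes compared, 5.11% were higher and 4.48% lower on day 1, 8.54% and 2.53% on day 3, 8.53% and 2.12% on day 7, 8.97% and 6.92% on day 14, and 3.68% and 2.79% on day 28. Of the cytosolic co-chaperones, 2 of 26 were higher on day 1, the small heat shock protein Hspb6 and the glucocorticoid-induced Hsp90 partner Fkbp5, and 1 was lower, Hspa12b. Hspb6 was at 3.11 FPKM in control, 7.47 on day 1, 10.3 on day 3, 4.23 on day 7, 6.08 on day 14 and 2.32 FPKM on day 28. Fkbp5 was at 7.72 FPKM in control, 23.2 on day 1, between 9.08 and 10.3 on days 3 to 14 and 15.9 FPKM on day 28. Hspa12b was at 1.59 FPKM in control and 0.520 FPKM on day 1, and Bag2 at 3.56 FPKM in control and 1.16 FPKM on day 7.

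The cytosolic chaperonin CCT, a ring of 8 subunits that folds actin and tubulin, had no subunit past 2-fold on days 1, 3, 7 and 28. On day 14 Cct4 was higher (16.7 FPKM in control and 34.5 FPKM) and Cct6a lower (61.5 and 28.5 FPKM). Cct5 reached a log2 ratio of 0.47 on day 1, and Cct8 -0.36 on day 3.

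Of the 30 other ER folding and degradation genes, Erp44 was past 2-fold at all 5 days. Erp44 retains ER proteins in the early secretory path, and was at 3.15 FPKM in control, 11.7 on day 1, 11.2 on day 3, 9.98 on day 7, 9.68 on day 14 and 10.4 FPKM on day 28. It was lowest in the control library, as Pdia6 was, and differed little among the other 5. Syvn1 (Hrd1), the ubiquitin ligase of ER-associated degradation, was at 4.51 FPKM in control and 9.41 FPKM on day 1. Edem3 was between 4.14 and 7.35 FPKM in 5 libraries and 0.411 FPKM on day 14, and Dnajc1 was between 3.60 and 5.45 FPKM in 5 libraries and 1.22 FPKM on day 14. The list's median log2 ratio was between 0.10 and 0.32 at the 5 days.

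Of the 10 sensors and their processing genes, 1 was higher on any day and 2 were lower, Mbtps2 and Creb3l2 on day 14. The higher one was Ern1, which encodes Ire1, at 0.678 FPKM in control and 1.72 FPKM on day 3. Atf6 was at 9.06 FPKM in control and between 6.07 and 8.94 FPKM after stroke. Mbtps2, the protease that releases Atf6, was at 4.71 FPKM in control and 1.48 FPKM on day 14, and Creb3l1 was highest on day 14 (2.31 FPKM, log2 ratio 0.95). Of the integrated stress response genes, 5 of 19 were higher on day 1 (Ppp1r15a, Atf3, Ddit4, Nupr1 and Mthfd2), 3 on days 3 and 7, 2 on day 14 and 0 of 18 on day 28. Of the same list 0 were lower on days 1 and 7, 1 on day 3 (Nupr1), 2 on day 14 (Eif2ak4 and Vldlr) and 1 on day 28 (Shmt2), against the shares of all genes given above. Atf3 was not listed in control, so no ratio is given for it. Nupr1 was at 2.91 FPKM in control, 12.6 on day 1, 1.34 on day 3, 7.26 on day 7, 12.7 on day 14 and 2.89 FPKM on day 28. Cth was highest on day 3 (3.20 FPKM against 1.07 FPKM in control). Shmt2 was lowest on day 28 (2.32 against 5.35 FPKM in control) and Eif2ak4 on day 14 (1.61 against 3.58 FPKM).

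The levels of cell type markers moved with the days, and the part of cell makeup in the members' values was not tested. Neuron markers summed to 1888 FPKM in control, 1880 on day 1, 1375 on day 3, 1639 on day 7, 1473 on day 14 and 1838 FPKM on day 28, with 7 of 8 listed (not Tubb3) and 0 past 2-fold. Microglia and macrophage markers summed to 121 FPKM in control, 144 on day 1 and 472 FPKM on day 3. Their sum was 870 FPKM on day 7, 597 on day 14 and 157 FPKM on day 28. Of those compared, 6 of 7, 5 of 7 and 6 of 8 were past 2-fold higher on days 3, 7 and 14. On day 1, 0 of 7 were higher and 1 was lower, P2ry12, although the sum was above control. P2ry12 was also below control on days 7, 14 and 28, by less than 2-fold, and above it on day 3. Lyz2 alone held 357 of the 870 FPKM on day 7. Fibroblast markers summed to 28.1, 30.4, 89.3, 109, 97.0 and 27.9 FPKM and astrocyte markers to 927, 1014, 1603, 1321, 1255 and 964 FPKM in the same order. Oligodendrocyte markers summed to between 1714 and 2422 FPKM and endothelial markers to between 33.6 and 65.3 FPKM, with Mobp listed nowhere, Cldn5 on day 1 alone and Cx3cr1 of the microglia list on days 1 and 14 alone. The microglia, fibroblast and astrocyte sums were highest on day 3 or day 7 and the oligodendrocyte sum on day 1, at 1.24 times control. Of the 8 astrocyte markers compared, only 1 was past 2-fold higher on days 1, 3, 7 and 14, and 0 on day 28. That gene was Gfap, at 85.8 FPKM in control, 330 on day 1, 698 on day 3, 422 on day 7, 380 on day 14 and 150 FPKM on day 28. At 2-fold, the astrocyte sum therefore does not show a rise across the list. Smaller differences were present on day 3, when Aqp4, Aldh1l1, Slc1a2, Slc1a3, Gja1 and S100b were also above control. These ran from Aldh1l1 (24.5 FPKM in control and 25.2 FPKM) to Aqp4 (27.0 and 50.6 FPKM). Aldoc was below control on day 3 (317 and 252 FPKM). The 3 peptide genes of the hypothalamus (Oxt, Avp and Pmch) were not listed in control and summed to 54.3 FPKM on day 1 and 4.49 to 33.3 FPKM later, and the part of tissue from outside the cortex was not tested either.

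The day 14 library stood apart in ways that touch the members. Across genes, the log2 ratio had a Spearman correlation with transcript length of -0.41 on day 14 and -0.25 on day 1, and between -0.09 and 0.00 at the other days. It lacked 38 genes whose median over the rest was 5 FPKM or more, where each other library lacked 2 to 7 such genes. The share of events that overlapped the span of their gene was 98.4% for members and 93.5% for all genes.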

How the data were processed

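The values used are the FPKM that the authors computed and deposited, 1 for each transcript start, end or splicing event. The submitters' processing notes name Trimmomatic 0.30, HISAT2 2.0.1, HTSeq 0.6.1 and mm10. The tool that made the events is not given in the sources used here. Exact repeats of a line were dropped and events were joined to genes by Ensembl identifier, of which 15429 of 15441 matched GENCODE M21 (the same build, GRCm38). The gene value, the pseudocount (0.1), the minimum of 1 FPKM and the 2-fold threshold are described with the results. Genes not listed in 1 of both libraries were taken as 0 in counts. The members and lists were chosen with earlier results of these data known. All members are named. Of each other pathway list, the genes named are the highest and lowest pair by log2 ratio among genes listed in all 6 libraries, and some others counted past 2-fold are also named, chosen after their values were seen. Alternatives covered the pseudocount, the events used, the filter, the threshold, centring and transcript length. No interval is given, since the files hold no counts or depths. The functions that build and compare gene values were tested on simulated data. The software was pandas 2.3.3 with numpy 2.4.6 and scipy 1.17.1 under Python 3.11.15, and matplotlib 3.10.9 for the plots.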

Additional observations from a re-analysis of the deposited data

How the results depend on the processing

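With 1 library per group, no result has a replicate check, and a low value in the control library shifts a gene at every day. No paired analysis was possible because each group has 1 library. Of 1898 log2 ratios of members other than Hspa5 under the alternatives, 1871 stayed within 1.5-fold of the reported ratio, 25 moved further and 2 reversed. The 2 were against the day 28 library: Pdia6 on day 7 was -0.48 and Ddit3 on day 14 was -0.54. Dropping the filter, keeping only genes listed in both libraries and adding Hspa8 and Hsp90b1 could not change these ratios. Each of those settings added 163 unchanged ratios to the 1871. Centring moved each ratio by 0.10 at most, so its 163 ratios could not leave the 1.5-fold range either. Against the day 28 library, which was added after the data were seen, 2 members were 2-fold higher on day 1, 0 on day 3, 1 on day 7 and 0 on day 14, and 2 were lower on day 1 (Manf and Ddit3), 1 on day 3 and 1 on day 7. Hspa5 then had log2 ratios of -0.13, -0.30, -0.70 and -0.89 on days 1, 3, 7 and 14, and 3 other pathway genes passed 2-fold in either direction on day 7 (6 as reported). The Hspa5 ratio reversed on day 1. From end events Hspa5 was 0.52 on day 28, and from start events 1 member (Hspd1) was lower on day 14. A pseudocount of 1 FPKM left 1 member higher on day 7 (Pdia6), and 7, 4 and 2 other pathway genes past 2-fold in either direction on days 1, 3 and 28 (11, 7 and 5 as reported). With events inside the gene span 1 member was higher on day 14 (Hspb1), and after the length correction 1 (Ddit3). Without the filter on low values 1 member was lower on days 1, 7, 14 and 28, Trib3, which was not listed there. At a threshold of 1.5-fold 9, 8, 6, 10 and 5 members were higher on days 1, 3, 7, 14 and 28, 2 lower on day 1 and 1 on day 7, and 19, 16, 16, 25 and 9 other pathway genes passed in either direction. The cytosolic median stayed below the ER median in 52 of 59 alternatives over the 5 days. Centring, dropping the filter and keeping only genes listed in both libraries are among the 52, but could not change the difference. Cytosolic minus ER was between -0.47 and -0.09 on day 3 and between -0.35 and -0.20 on day 28. It ranged from -0.36 to 0.16 on day 1, from -0.44 to 0.06 on day 7 and from -0.17 to 0.37 on day 14. The cause of these changes was not tested, apart from the construction of the end, start and inside-span values.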
